A study of Mus musculus with 4 samples.

Results

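The amino acid transporters described here are the members of 7 solute carrier families, chosen by gene symbol: Slc1, Slc3, Slc6, Slc7, Slc36, Slc38 and Slc43, each followed by a member number. Of the 24428 gene symbols counted, 59 are such transporters, and 38 of them had enough reads to be tested. The rule takes whole families, so it also holds carriers of other solutes, such as the taurine carrier Slc6a6 and the creatine carrier Slc6a8.

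Cells take up most amino acids through membrane carriers, some driven by the sodium or proton gradient and some exchanging one amino acid for another. The Slc38 sodium-coupled carriers and the Slc1 exchangers bring in small neutral amino acids such as glutamine, alanine and serine. The Slc7 light chains pair with an Slc3 heavy chain and work as exchangers, some for leucine and other large amino acids and some for cystine. Several carriers also sit in the lysosome, where amino acid release feeds the growth kinase complex mTORC1, and mouse embryonic stem cells are known for their heavy use of threonine, glutamine and methionine.

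The libraries were poly(A) RNA-seq of mouse embryonic stem cells (129SvEv, passage 15-20) whose Smarca4 alleles are floxed and which carry CreER, a Cre recombinase that 4-hydroxytamoxifen switches on. Smarca4 encodes BRG1, an ATPase of the mSWI/SNF chromatin remodelling complexes. Tamoxifen cells (n = 2) received 0.8 uM 4-hydroxytamoxifen and ethanol cells (n = 2) received the solvent, both for 48 h, and all were harvested 72 h after treatment began. Both groups were kept in medium with serum and the cytokine LIF, and the labels give both the same genotype, an acute Smarca4 deletion, so groups were taken from the treatment. A tamoxifen-treated culture without floxed Smarca4 was not analysed here, so deletion, drug and active Cre cannot be told apart. Nothing in the labels says that the 2 libraries of a group were separate cultures, and p-values therefore cover only sample-to-sample spread, part or all of which may be technical.

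Reads in genes numbered 13458463 and 17191445 in the tamoxifen libraries and 16130823 and 27086142 in the ethanol libraries. Ethanol replicate 1 stood apart in reads outside any annotated gene, at 51.7%, against 35.0 to 40.8% in the other libraries. Smarca4 was at 68.5 and 68.7 CPM (reads scaled to a common library size by TMM) with tamoxifen and at 328 and 409 CPM with ethanol, a log2 fold change of -2.43 ± 0.17 (SE; edgeR quasi-likelihood test, Benjamini-Hochberg adjusted p = 1.08e-05). That count includes exons outside the deleted part. Of 10 pluripotency markers 2 were higher with tamoxifen (Klf4 at 0.62 and Dppa5a at 0.53) and 2 lower (Tcl1 at -1.17 and Tdgf1 at -0.52). The other markers of this list, Pou5f1 among them, were not called. The list summed to 5530 and 5250 CPM with tamoxifen and 5300 and 5140 CPM with ethanol. Marker counts are read against all tested genes, of which 21.5% rose and 22.9% fell. With a GC offset, a correction for transcript base composition, these shares were 9.86% and 10.1%. With it, 3 pluripotency markers were higher and 3 lower. Of 9 tested fibroblast markers 6 were higher with tamoxifen and 0 lower, with or without the offset. The 10 listed summed to 731 and 715 CPM with tamoxifen against 433 and 347 CPM with ethanol. Of 8 tested trophectoderm markers 4 were higher and 2 lower (1 and 2 with the offset), and Cdx2 and Elf5 were too low to test. Trophectoderm markers summed to 411 and 423 CPM with tamoxifen and 284 CPM in both ethanol libraries. Of 10 primitive endoderm markers 3 were higher and 1 lower (1 and 3 with the offset). They summed to 2110 and 1920 CPM with tamoxifen against 1910 and 1620 CPM with ethanol. The part of these markers in the transporter results was not tested, and in bulk RNA fewer cells of a type and less RNA per cell cannot be told apart.

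The 59 transporters together held 0.271 and 0.249% of the reads in genes with tamoxifen, against 0.236 and 0.244% with ethanol. Of the 38 tested, 10 rose and 9 fell (edgeR quasi-likelihood test, adjusted p under 0.05). The risers made up 26.3% of the tested transporters, while 21.5% of all 14479 tested genes rose. The fallers made up 23.7%, while 22.9% of all tested genes fell, and both directions together came to 50% of transporters against 44.5% of genes. Their median log2 fold change was 0.20, against -0.01 over all tested genes. Neither share stands far from that of genes at large.

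Reads were concentrated in few carriers. In order of their mean share of transporter reads, Slc38a2 (13.1%), Slc38a4 (11.6%), Slc3a2 (11.3%), Slc7a5 (10.1%), Slc38a1 (8.59%), Slc6a6 (7.81%), Slc1a5 (5.21%), Slc7a1 (3.59%), Slc7a6 (3.42%), Slc7a3 (3.31%) and Slc6a8 (3.08%) held 81.2% of them. Among these 11, Slc38a4 and Slc7a3 fell, none rose and 9 were not called. Of the other 27 tested transporters, 10 rose and 7 fell. Over all tested genes 21.5% rose and 22.9% fell, and the difference between the 2 sets of transporters was not tested. Among the risers Slc1a6 and Slc38a5 had enough reads only through tamoxifen, and among the fallers Slc1a1 only through ethanol. The leading 11 gave 79.6 and 79.2% of transporter reads with tamoxifen, against 82.7 and 83.1% with ethanol. Slc38a4 alone gave 7.11 and 8.41% with tamoxifen and 14.2 and 16.9% with ethanol. Without it, the leading carriers together gave a larger share in both tamoxifen libraries than in both ethanol libraries.

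**Figure D1:**
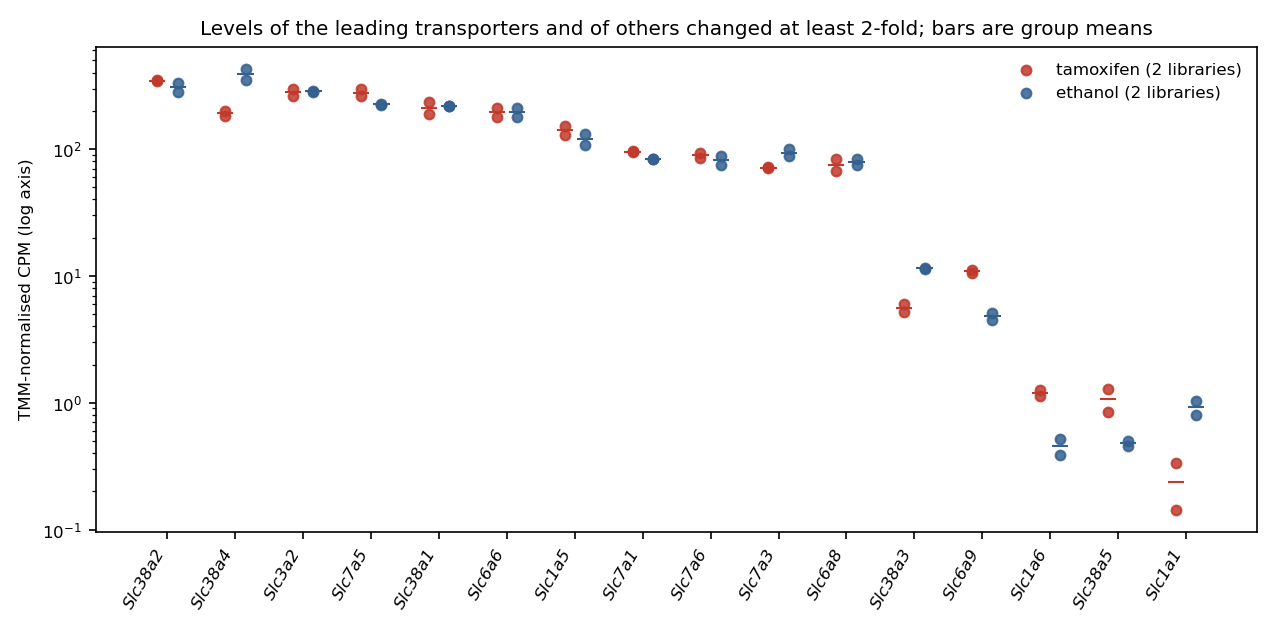
Each point is a library, in TMM-normalised CPM on a log axis, with tamoxifen left of ethanol and a short bar at each group mean (n = 2). The 11 leading transporters come first, then 5 others that changed at least 2-fold; among the leading ones Slc38a4 shows the widest gap, at 183 and 201 CPM with tamoxifen and 352 and 427 CPM with ethanol.

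By family, Slc38 carried the most reads, at 37.7 and 39.8% of transporter reads with tamoxifen and 40.4 and 44.4% with ethanol. Slc7 followed, at 27.1% in both tamoxifen libraries against 23.8 and 23.2% with ethanol. Slc6 held 12.4 and 11.4% with tamoxifen and 13 and 11.1% with ethanol, and Slc3 held 11.6 and 10.9% against 11.6 and 11.2%. The smaller families were Slc1, at 8.41 and 7.94% with tamoxifen against 8.75 and 8.04%, Slc43, at 2 and 1.91% against 1.66 and 1.49%, and Slc36, at 0.854 and 0.896% against 0.679 and 0.524%. The tamoxifen libraries thus lay above both ethanol libraries in Slc7, Slc36 and Slc43, below both in Slc38, and between or overlapping in the rest. Slc38a4 alone held 7.11 and 8.41% with tamoxifen and 14.2 and 16.9% with ethanol. The remaining Slc38 members together held a larger share in both tamoxifen libraries than in both ethanol libraries. Shares add up to a fixed total, so the lower share of Slc38a4 also raises those of the other families. These shares are a description, since an exact permutation test of 2 libraries against 2 cannot pass the threshold.

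**Figure D2:**
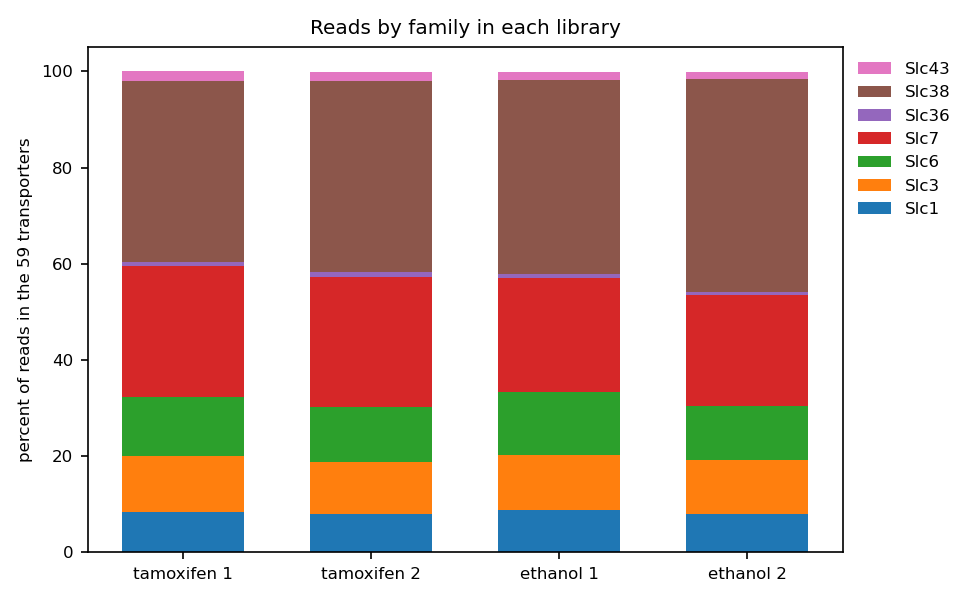
Stacked bars give the percent of all transporter reads held by each of the 7 families in the 2 tamoxifen and the 2 ethanol libraries. Slc38 is the tallest block in each, at 37.7 to 44.4%, and the Slc7 block is taller with tamoxifen (27.1%) than with ethanol (23.2 to 23.8%).

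The Slc38 family held the largest decrease among the 11 leading carriers, that of Slc38a4, beside 2 other leading carriers with no call. Of 9 tested, 3 rose, 3 fell and 3 were not called, with a median log2 fold change of -0.04. Over all tested genes 21.5% rose and 22.9% fell. Slc38a4, a sodium-coupled carrier of small neutral amino acids that is paternally expressed in mice, had 183 and 201 CPM with tamoxifen, against 352 and 427 CPM with ethanol. It fell 2.02-fold, by a log2 fold change of -1.02 ± 0.16 (adjusted p = 0.000559), and both tamoxifen libraries lay below both ethanol libraries.

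Slc38a2, the system A carrier that starved cells induce, had 342 and 350 CPM with tamoxifen and 283 and 330 CPM with ethanol, a log2 fold change of 0.18 ± 0.15 (adjusted p = 0.372). The groups did not overlap, and with a GC offset, a correction for transcript base composition, Slc38a2 was called higher (0.68, adjusted p = 0.00597). Slc38a1, a glutamine carrier of the same system, had 233 and 189 CPM with tamoxifen and 218 and 217 CPM with ethanol (-0.04 ± 0.16, adjusted p = 0.844), and here the groups overlapped. Slc38a1, Slc38a2 and Slc38a4 are neighbours on chromosome 15, with no other protein-coding gene between them, and of the 3 only Slc38a4 was called without a GC offset.

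The glutamine carrier Slc38a3 (system N) had 6.01 and 5.21 CPM with tamoxifen, against 11.4 and 11.5 CPM with ethanol. It fell 2.04-fold, by a log2 fold change of -1.03 ± 0.19 (adjusted p = 0.00122). Its system N relative Slc38a5 rose on few reads, with 0.849 and 1.29 CPM against 0.456 and 0.499 CPM (1.16 ± 0.43, adjusted p = 0.0448), and that call was lost when any 1 of the 4 libraries was left out (0.81 to 1.41) and with the GC offset (1.05). The lysosomal glutamine and asparagine exporter Slc38a7 rose to 97.2 and 95.2 CPM with tamoxifen, against 58.4 and 53.3 CPM with ethanol (0.78 ± 0.14, adjusted p = 0.00119). Slc38a10 rose as well (0.71 ± 0.15, adjusted p = 0.00298), a call lost with the GC offset (0.25). Slc38a6 fell (-0.46 ± 0.17, adjusted p = 0.048), a call lost without ethanol replicate 1 (-0.38) or either tamoxifen library (-0.49 and -0.43) and with the GC offset (-0.24). The lysosomal arginine sensor Slc38a9 was not called (-0.40 ± 0.17, adjusted p = 0.0671), with both tamoxifen libraries, at 11.9 and 11 CPM, below the ethanol libraries at 14.9 and 15.3 CPM.

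**Figure D3:**
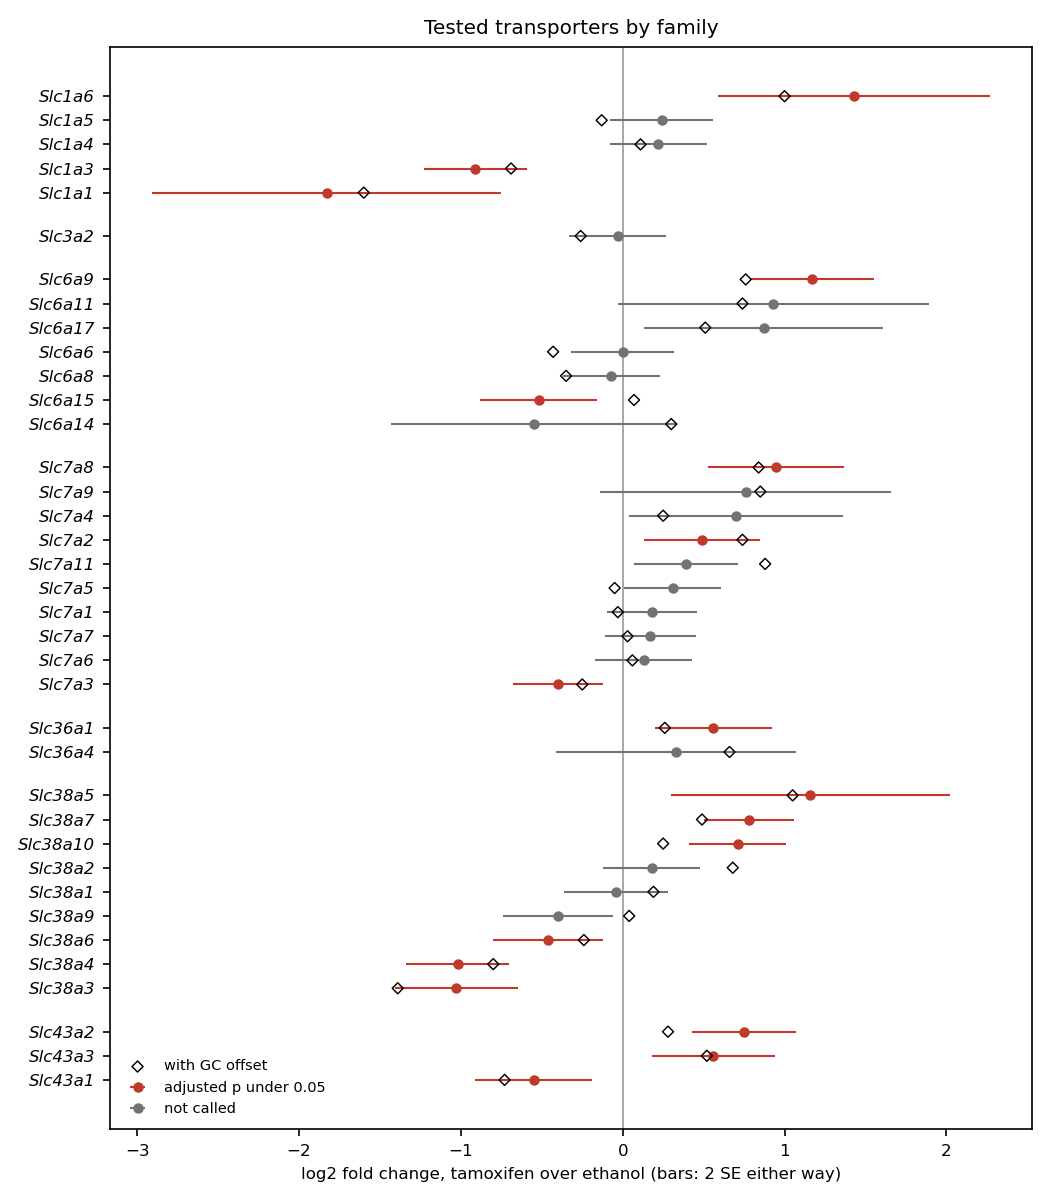
Tested transporters are placed by log2 fold change, tamoxifen over ethanol, with bars of 2 SE either way, grouped by family; red marks adjusted p under 0.05 and open diamonds the value with a GC offset. Calls in both directions occur in Slc1, Slc6, Slc7, Slc38 and Slc43, and the widest bars belong to the least read genes, such as Slc1a1 at -2.91 to -0.75.

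Among the heteromeric exchangers the shared heavy chain was not called, and 1 of 6 tested light chains rose (2 with a GC offset). Over all tested genes 21.5% rose, or 9.86% with the offset. Slc3a2, the heavy chain of the CD98 dimers, had 298 and 262 CPM with tamoxifen, against 288 and 284 CPM with ethanol (-0.03 ± 0.15, adjusted p = 0.888), with overlapping groups. Its interval of 2 SE either way ran over -0.33 to 0.27 without a GC offset. With the offset Slc3a2 was at -0.26 ± 0.14, again not called, so that interval does not bound the size of change that could have been missed. Slc7a5, the light chain of the leucine exchanger LAT1, had 296 and 261 CPM with tamoxifen and 222 and 228 CPM with ethanol (0.31 ± 0.15, adjusted p = 0.112). The groups did not overlap, the difference was not called, and its sign turned with a GC offset (-0.05). Of the 6 tested light chains Slc7a8 alone was called without a GC offset, and Slc7a8 and Slc7a11 were called higher with it.

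Slc7a8, the LAT2 light chain for neutral amino acids, rose to 35.7 and 26.2 CPM with tamoxifen, against 19.2 and 13.1 CPM with ethanol (0.95 ± 0.21, adjusted p = 0.00462). Slc7a6 and Slc7a7, whose dimers exchange cationic for neutral amino acids, were not called. Slc7a6 had 85.4 and 93.3 CPM against 74.9 and 87.8 CPM (0.13 ± 0.15, adjusted p = 0.483), with overlapping groups, and Slc7a7 had a log2 fold change of 0.17 ± 0.14 (adjusted p = 0.339), with 7% of its exon bases shared with Oxa1l on the opposite strand. Slc7a11, the cystine and glutamate exchanger, had 39.1 and 31.5 CPM with tamoxifen and 27.8 and 25.9 CPM with ethanol (0.39 ± 0.16, adjusted p = 0.0636). It was short of the threshold without a GC offset and was called higher with it (0.88). Slc7a9, which pairs with the other heavy chain Slc3a1, stayed under 1 CPM in every library (0.76 ± 0.45, adjusted p = 0.185).

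Levels of different genes can be set side by side only per transcript length (reads per kb, scaled to the same total in each library), and these depend on which transcript is taken. By the longest coding transcript, Slc3a2 averaged 267 with tamoxifen and 251 with ethanol. Slc7a5 averaged 213 with tamoxifen and 158 with ethanol, a mean ratio of heavy to light chain of 1.42 over the 4 libraries. By the median transcript length that ratio was 6.18, since the median for Slc3a2, 0.647 kb, includes short transcripts. On the longest-transcript scale the summed light chains were 1.38 and 1.46 times Slc3a2 with tamoxifen, against 1.12 and 1.17 times with ethanol, but by the median length they were below it, at 0.666 and 0.757 times with tamoxifen and 0.577 and 0.622 times with ethanol. Slc7a5 made up 57.6 and 54.5% of that sum with tamoxifen and 55 and 55.1% with ethanol, so its share overlapped between groups. By the median length its share was 27.5 and 24.2% with tamoxifen and 24.6 and 23.7% with ethanol. Both tamoxifen libraries had a higher ratio of light to heavy chains than both ethanol libraries on either scale, while which of the chains was higher depended on the scale. On the longest-transcript scale Slc38a4 averaged 131 with tamoxifen and 246 with ethanol, where Slc3a2 averaged 251.

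The cationic carriers, which import arginine and lysine, split. Slc7a1, the CAT1 carrier found in most cells, had 96.3 and 94.1 CPM with tamoxifen, against 83.7 and 83.8 CPM with ethanol (0.18 ± 0.14, adjusted p = 0.297), groups that did not overlap. Slc7a3 (CAT3) had 71.8 and 70.6 CPM with tamoxifen, against 99.5 and 87.9 CPM with ethanol, and fell by a log2 fold change of -0.40 ± 0.14 (adjusted p = 0.0402). That call was lost without ethanol replicate 1 (-0.30) or either tamoxifen library (-0.41 and -0.38) and with the GC offset (-0.25). Slc7a2 (CAT2) rose to 9.69 and 9.47 CPM, against 6.78 and 6.84 CPM (0.49 ± 0.18, adjusted p = 0.0432), a call lost when any 1 library was left out (0.47 to 0.51). Slc7a4, for which no substrate is well established, was not called (0.70 ± 0.33, adjusted p = 0.0995), and 13.3% of its exon bases are shared with P2rx6 on the opposite strand.

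Several carriers are known targets of ATF4, the transcription factor of the amino acid response, which binds the C/EBP-ATF element TGATGNAA. The element was searched on both strands in the promoters that RefSeq gives for GRCm38.p6, as windows of 250 bases before to 50 after each start. Of the 41 transporters matched there, 3 hold it. The 41 include 26 of the 38 tested transporters, and those without a window were not searched. The element occurs in 3.97% of the 32851 windows of all genes and in 4 of the 62 transporter windows (6.45%). The sequences of these 3 are shown because they hold the element, which is in capitals. Slc7a11 lies at chr3:50443564-50443863 (minus strand), with matches that begin 66 and 47 bases before the start, the second on the opposite strand. Slc7a7 lies at chr14:54417895-54418194 (minus strand), with matches at 141 and 1 bases before the start; a second Slc7a7 window overlaps this one and holds the match nearest the start again. For Slc1a4, in the window chr11:20332664-20332963 (minus strand), the match begins 4 bases before the start and 60 bases around it are given.
Slc7a11: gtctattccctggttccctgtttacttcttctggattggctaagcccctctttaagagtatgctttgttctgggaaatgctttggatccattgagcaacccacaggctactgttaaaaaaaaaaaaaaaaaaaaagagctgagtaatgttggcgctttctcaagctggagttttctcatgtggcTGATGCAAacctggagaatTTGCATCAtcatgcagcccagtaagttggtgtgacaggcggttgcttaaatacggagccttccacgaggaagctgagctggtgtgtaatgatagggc
Slc7a7: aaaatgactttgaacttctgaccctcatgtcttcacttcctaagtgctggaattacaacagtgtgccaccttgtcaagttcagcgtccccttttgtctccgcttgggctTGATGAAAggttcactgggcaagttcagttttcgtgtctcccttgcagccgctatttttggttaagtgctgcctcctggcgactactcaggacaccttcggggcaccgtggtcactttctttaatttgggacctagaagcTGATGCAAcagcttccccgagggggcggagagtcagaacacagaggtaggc
Slc1a4: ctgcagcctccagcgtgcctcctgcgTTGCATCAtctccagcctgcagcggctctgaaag
None of the 3 was called without a GC offset: Slc7a11 was at 0.39, Slc7a7 at 0.17 and the neutral exchanger Slc1a4 at 0.22 ± 0.15 (adjusted p = 0.26) on the log2 scale. A match to these letters is a description and says nothing of binding in these cells.

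In the Slc1 family, the most read glutamate carrier fell and the neutral exchangers were not called. Slc1a3 (GLAST), the most read glutamate and aspartate carrier, fell to 39.9 and 33.6 CPM with tamoxifen, against 62.4 and 75 CPM with ethanol (-0.91 ± 0.16, adjusted p = 0.00104). Both tamoxifen libraries lay well below both ethanol libraries. Slc1a5 (ASCT2), the main glutamine exchanger of many dividing cells, had 151 and 130 CPM with tamoxifen and 131 and 107 CPM with ethanol (0.24 ± 0.16, adjusted p = 0.24), with overlapping groups, and its sign turned with a GC offset (-0.13).

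Both other tested glutamate carriers rested on few reads, and each passed the filter only through the group where it was high. Slc1a1 (EAAC1) had 0.142 and 0.336 CPM with tamoxifen, against 1.04 and 0.806 CPM with ethanol, and fell by a log2 fold change of -1.83 ± 0.54 (adjusted p = 0.0162). That call was lost with the GC offset (-1.60) and without tamoxifen replicate 1 (-1.42), and its value without tamoxifen replicate 2 was -2.62. In the annotation 31.9% of its exon bases are shared with 4430402I18Rik on the opposite strand, and reads of the pair cannot be told apart because strand handling is not stated. Slc1a6 (EAAT4) had 1.27 and 1.12 CPM with tamoxifen, against 0.521 and 0.384 CPM with ethanol, and rose (1.43 ± 0.42, adjusted p = 0.0165). Its call was lost without ethanol replicate 2 (1.19) or either tamoxifen library (1.33 and 1.52), and with the GC offset.

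Slc6 is the family of sodium- and chloride-coupled carriers, and its most read members were not called. Slc6a6, the taurine carrier, had 212 and 178 CPM with tamoxifen and 211 and 179 CPM with ethanol (-0.00 ± 0.16, adjusted p = 0.998). Slc6a8, the creatine carrier, had 83.1 and 66.9 CPM with tamoxifen and 82.9 and 74.9 CPM with ethanol (-0.07 ± 0.15, adjusted p = 0.722). In both genes the groups overlapped, and the 2 SE intervals without a GC offset were -0.32 to 0.32 and -0.38 to 0.24. With the offset Slc6a6 was at -0.43 ± 0.15 (adjusted p = 0.0566) and Slc6a8 at -0.35 ± 0.15 (adjusted p = 0.111), neither called. The intervals therefore do not bound the size of change that could have been missed.

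Slc6a9 (GlyT1), the glycine carrier, had 10.6 and 11.2 CPM with tamoxifen, against 4.5 and 5.11 CPM with ethanol. It rose 2.25-fold (1.17 ± 0.19, adjusted p = 0.000657), and its groups stood well apart, although 27.8% of its exon bases are shared with Ccdc24 on the opposite strand. The GABA carrier Slc6a11 was not called (0.93 ± 0.48, adjusted p = 0.128).

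Slc6a15, a carrier of branched-chain amino acids and proline, fell (-0.52 ± 0.18, adjusted p = 0.0318). That call was lost without ethanol replicate 1 (-0.40) or either tamoxifen library (-0.43 and -0.64), and the sign turned with a GC offset (0.07). Slc6a17, a neutral amino acid carrier of synaptic vesicles, was at 0.87 ± 0.37 (adjusted p = 0.071), and the broad-range carrier Slc6a14 was at -0.55 ± 0.44 (adjusted p = 0.333).

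All 3 Slc43 carriers changed, and not in 1 direction, where 44.5% of all tested genes were called. With the GC offset, only Slc43a1 was called, where 19.9% of all tested genes were. Slc43a2 (LAT4), which releases large neutral amino acids from cells, rose to 29.2 and 25.5 CPM with tamoxifen, against 16.5 and 15.9 CPM with ethanol (0.75 ± 0.16, adjusted p = 0.00287). Slc43a1 (LAT3), with similar substrates, fell to 12.2 and 9.86 CPM, against 17 and 15.4 CPM (-0.55 ± 0.18, adjusted p = 0.024), a call lost without tamoxifen replicate 2 (-0.40). Slc43a3, which carries purine nucleobases, rose (0.56 ± 0.19, adjusted p = 0.0283), a call lost without ethanol replicate 2 (0.44) or either tamoxifen library (0.56 and 0.55). Slc43a1 and Slc43a3 are near neighbours on chromosome 2, with 1 protein-coding gene between them, and changed in opposite directions.

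In the proton-coupled Slc36 family, Slc36a1 (PAT1), which exports small amino acids from lysosomes, rose to 20.6 and 18.9 CPM with tamoxifen, against 15.3 and 11.6 CPM with ethanol (0.56 ± 0.18, adjusted p = 0.0232). Its call was lost without ethanol replicate 2 (0.37) or either tamoxifen library (0.50 and 0.62) and with the GC offset (0.26). Slc36a4 was read at 1.06 and 2.02 CPM against 1.17 and 1.31 CPM and was not called (0.33 ± 0.37, adjusted p = 0.486).

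The other 21 transporters were too low to test, with at most 18 reads in any library, and together held at most 0.167% of transporter reads. The most read of them, the glutamate carrier Slc1a7, had 18 and 9 reads with tamoxifen and 3 and 4 with ethanol. They also include Slc3a1, the second heavy chain, the glutamate carrier Slc1a2, and the serotonin, dopamine and noradrenaline carriers Slc6a4, Slc6a3 and Slc6a2. Slc38a11, Slc6a18, Slc7a12 and Slc7a13 had 0 reads in all 4 libraries, which allows up to 3 reads each, or 0.223 and 0.175 CPM in the tamoxifen libraries and 0.186 and 0.111 CPM in the ethanol libraries. Of the 38 tested, 33 passed the filter in both groups, 4 (Slc1a6, Slc6a11, Slc38a5 and Slc7a9) only through tamoxifen and 1 (Slc1a1) only through ethanol, so those 5 could pass only where they were high.

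Fold changes followed base composition across the whole data set. Over all tested genes the log2 fold change had a Spearman correlation of 0.638 with transcript GC content, and over the 38 tested transporters, which range over 38.7 to 57.9% GC, it was 0.409. These are correlations across genes of the same 4 libraries and are given as a description. With a GC offset in the same edgeR quasi-likelihood test, 6 transporters rose and 5 fell, 28.9% of those tested, and 19.9% of all tested genes were called, 9.86% higher and 10.1% lower. The correlation over the transporters was then -0.0848 and their median log2 fold change 0.15. A weaker correlation follows from the offset by design, since it is fitted to GC content.

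With and without the offset, 9 transporters were called in the same direction. Among them Slc38a7 (0.49 with it), Slc7a8 (0.84), Slc7a2 (0.74) and Slc6a9 (0.76) rose, and Slc38a4 (-0.80), Slc1a3 (-0.69), Slc43a1 (-0.73) and Slc38a3 (-1.39) fell. Slc38a2 (0.68, adjusted p = 0.00597) and Slc7a11 (0.88, adjusted p = 0.00335), both of low GC content at 43.9 and 44.1%, were called only with it. Calls were lost for Slc38a10 (0.25), Slc43a2 (0.28), Slc36a1 (0.26), Slc43a3 (0.52), Slc38a5 (1.05), Slc1a6, Slc7a3 (-0.25), Slc38a6 (-0.24), Slc6a15 (0.07) and Slc1a1 (-1.60). A change in the cells that follows GC content and a technical one cannot be told apart here.

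**Figure D4:**
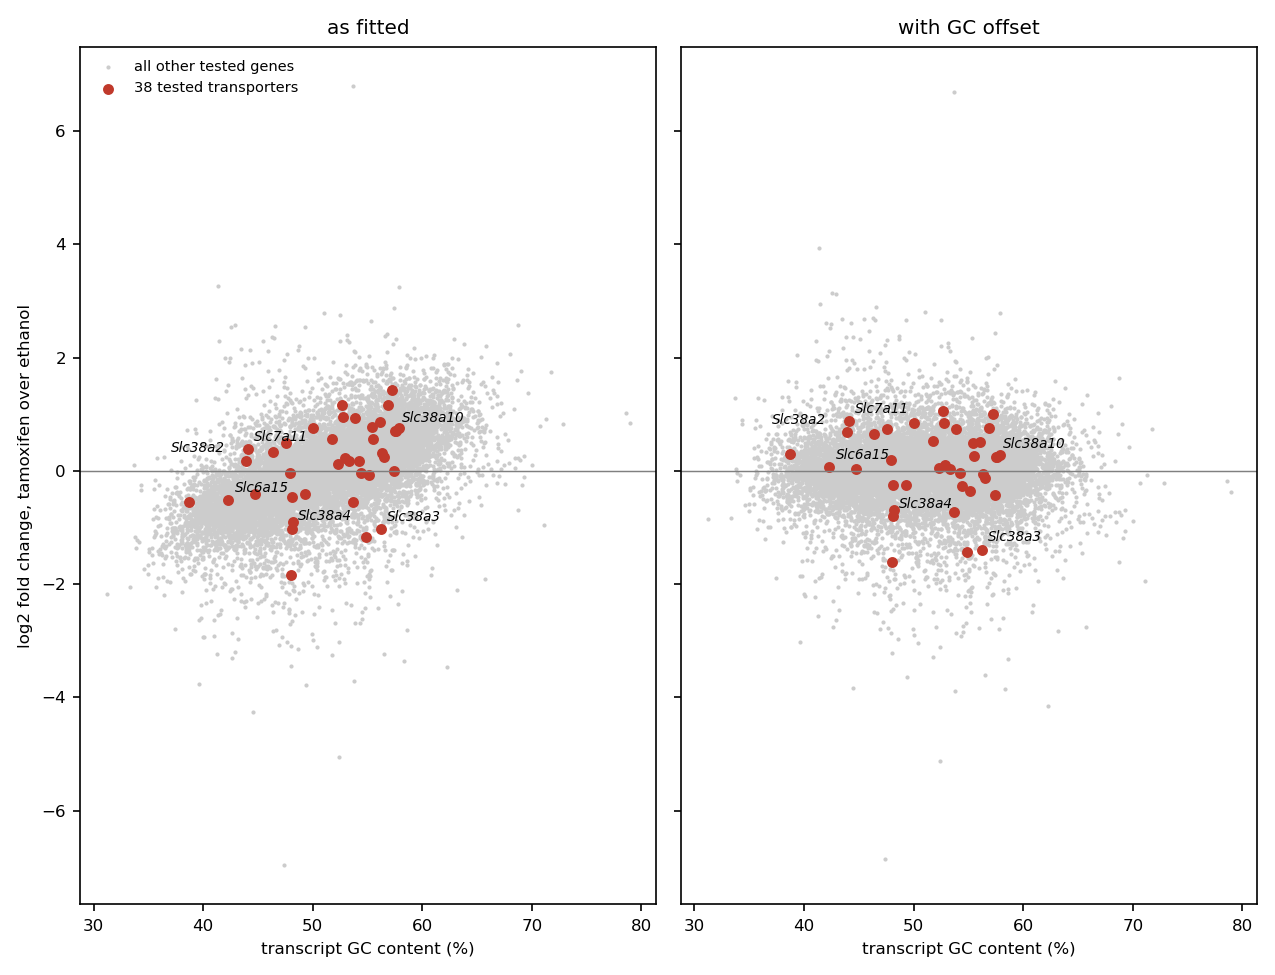
Log2 fold change, tamoxifen over ethanol, is plotted against transcript GC content in percent, as fitted at left and with the GC offset at right; grey points are all tested genes and red points the 38 tested transporters. The upward tilt at left was 0.638 by Spearman over all genes, and the offset, fitted to GC content, takes it out by design. At right Slc38a2 stands at 0.68 and Slc7a11 at 0.88 while Slc38a4 and Slc38a3 remain below 0.

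Counts of calls among other genes of amino acid handling are read against all tested genes, of which 21.5% rose and 22.9% fell, or 9.86% and 10.1% with the GC offset. Of 20 tested carriers of amino acids, peptides or glutathione outside the 7 families, 6 rose and 6 fell (1 and 4 with the GC offset). The 4 with the smallest adjusted p all fell. The peptide carrier Slc15a2 had 3.04 and 2.86 CPM with tamoxifen, against 11.9 and 12.5 CPM with ethanol (-2.05 ± 0.20, adjusted p = 6.01e-05). The mitochondrial aspartate and glutamate carrier Slc25a13 (-1.29), the aromatic amino acid carrier Slc16a10 (-1.17) and the mitochondrial glutathione carrier Slc25a40 (-0.90) fell as well, the last only without the offset (-0.12 with it).

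Among 35 tested genes of amino acid sensing and mTORC1, 9 rose and 8 fell (4 and 4 with the offset), near the shares of all tested genes. That list also holds Mtor and Rptor of the complex itself, and Rheb, Tsc1 and Tsc2. The leucine sensor Sesn2 had 86.1 and 92.1 CPM with tamoxifen, against 31.4 and 33.5 CPM with ethanol (1.46 ± 0.15, adjusted p = 6.14e-05), and stayed called with the offset (0.94). Rheb, the GTPase that activates mTORC1, fell (-0.96 ± 0.14, adjusted p = 0.000433). Seh1l (-0.91), of the GATOR2 complex, fell, a call lost with the offset (-0.40).

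Of 23 tested genes of the GCN2 and ATF4 response, 5 rose and 5 fell, again near the 21.5% and 22.9% of all tested genes. With the offset 2 rose and 5 fell, beside 9.86% and 10.1% of all tested genes. Sesn2 belongs to this list too. Cth, which makes cysteine from cystathionine, fell to 16.2 and 20.6 CPM with tamoxifen, against 46.1 and 62.8 CPM with ethanol (-1.56 ± 0.19, adjusted p = 0.000142). Psat1, of serine synthesis, fell by a log2 fold change of -1.27 ± 0.16 (adjusted p = 0.000168), and the transcription factor gene Cebpb rose (1.20 ± 0.21, adjusted p = 0.000997), a call lost with the offset (0.29). Atf4 itself, named after its values were seen, was not called (-0.12 ± 0.17, adjusted p = 0.576), at 309 and 278 CPM with tamoxifen and 365 and 275 CPM with ethanol.

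Of 20 tested enzymes that use threonine, proline, glutamine, methionine and branched-chain amino acids, 3 rose and 7 fell (1 and 4 with the offset), beside 21.5% and 22.9% of all tested genes (9.86% and 10.1% with the offset). Bcat1, which starts branched-chain breakdown in the cytosol, had 40.5 and 37.9 CPM with tamoxifen, against 136 and 153 CPM with ethanol (-1.88 ± 0.15, adjusted p = 3.12e-05). Aldh4a1, of proline breakdown, rose 2-fold (adjusted p = 0.00045). Gcat, of threonine breakdown, rose (0.72 ± 0.16, adjusted p = 0.00414) and lost its call with the offset (0.30).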

How the data were processed

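Raw counts of reads per gene symbol for 4 poly(A) RNA-seq libraries were used as deposited by the authors; the 5 HTSeq summary lines were kept out of library sizes and tests. The submitters' processing notes name CASAVA 1.8.2, Bowtie 1.1.1, HTSeq, DESeq2 and the build mm9. Which annotation, strand setting and tool roles applied is not given in the sources used here. Reads in no gene were 37.6 and 35.0% of counted reads with tamoxifen and 51.7 and 40.8% with ethanol.

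Groups came from the titles. After filterByExpr (minimum 10 reads) and TMM scaling, 14479 genes were compared by edgeR 4.0.16 (R 4.3.3) in its robust quasi-likelihood form. Adjustment was by Benjamini-Hochberg at 0.05. Log2 fold changes are tamoxifen over ethanol, and their SE is the size of the log2 fold change divided by the root of the F statistic. The biological coefficient of variation was 12.6%. Within groups, chi-square per degree of freedom was 10.9 for tamoxifen and 39.8 for ethanol, above sampling noise, so no library was taken as a duplicate. The procedure was tested on simulated data.

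GC content and lengths came from GENCODE M21 transcripts (GRCm38), the protein-coding ones where a gene has any and otherwise all of them. To that annotation 23535 of 24428 symbols matched by name and 524 by synonym, leaving 369 unmatched. Exon overlaps used all GENCODE M21 exons of the counted symbols, noncoding transcripts included. Gene order came from the protein-coding genes of RefSeq (GRCm38). The GC offset was a loess fit per library (span 0.5, degree 1). Promoters came from RefSeq on GRCm38.p6, and no coordinate was carried over from mm9.

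Members, roles, companion gene lists and markers were chosen with earlier results of these data known. Values per library are given for Smarca4, for members up to 80% of transporter reads and for called members with an absolute log2 fold change of at least 1, and for some others; each tested member is named. Of each companion list the 4 called genes with the smallest adjusted p are named. From these rules 3 genes are not reported here, though the counts include them. Alternatives were other scaling, filters and thresholds, DESeq2 1.42.0, voom of limma 3.58.1, the replicate number as a block, the GC offset and leaving out each library.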

Additional observations from a re-analysis of the deposited data

How the results depend on the processing

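Of the 19 transporters called, 1 (Slc38a3) kept its call under all 19 alternative settings; the cause of the other losses was not tested. Slc1a3, Slc38a4, Slc38a7, Slc6a9 and Slc7a8 lost theirs only where the GC offset was used and 1 library was also left out. Depth limits the low members: the 7 tested with a mean under 1 CPM with ethanol had SE of 0.37 to 0.54, against 0.14 to 0.16 in the leading 11. Total counts in place of TMM moved the median over all genes to 0.12 on the log2 scale and over the transporters to 0.33. A fit with 1 library in a group takes its spread from the other group.

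With the GC offset, 1428 genes rose and 1457 fell, and 6 transporters rose and 5 fell; from the GC content of all transcripts, an alternative chosen after seeing the data, 1510 genes rose, 1501 fell and 6 transporters rose. At an adjusted p under 0.01, 1765 genes rose and 2041 fell, and 5 transporters rose and 4 fell. DESeq2 called 6 transporters higher and 4 lower, and total counts called 5 lower. Called members per family were 1 for Slc1 with DESeq2, the GC offset or the 0.01 threshold, 1 for Slc7 with DESeq2 or that threshold, 0 for Slc36 with either GC offset or that threshold, and 1 for Slc43 with DESeq2, either GC offset or that threshold. In the companion lists, the other carriers had 5 calls with either GC offset and 7 at 0.01, the mTORC1 genes 8 and 10 with the offsets and 10 at 0.01, and the threonine and glutamine enzymes 5 with either offset and 6 at 0.01. The ratio of Slc3a2 to Slc7a5 was 1.42 with the longest transcript in place of 6.18.

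Deviations of same-numbered libraries from their group means correlated at 0.234 across genes, but with 2 pairs the shared numbers do not by themselves pair the samples. With the replicate block, 12 transporters rose and 10 fell, 5 of them called in Slc7, and over all genes 3919 rose and 4168 fell. The replicate block with the GC offset gave 7 higher and 8 lower, 0 calls in Slc36 and 6 among the threonine and glutamine enzymes.

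Leaving out 1 library, with or without the GC offset, gave 279 to 3598 genes higher and 342 to 3728 lower, and 0 to 12 transporters higher and 2 to 9 lower. Called members ran over 0 to 5 in Slc1, 0 to 3 in Slc6, 0 to 3 in Slc7, 0 to 1 in Slc36, 1 to 5 in Slc38 and 0 to 3 in Slc43. In the companion lists they ran over 2 to 13 other carriers, 1 to 23 mTORC1 genes, 3 to 10 ATF4 response genes and 1 to 13 threonine and glutamine enzymes.

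The log2 fold change of 14 of the 38 tested members changed sign in at least 1 setting, and of these Slc6a15 was called. Upper-quartile factors gave 0.03 for Slc3a2, 0.02 for Slc38a1 and 0.06 for Slc6a6, total counts gave 0.10, 0.08 and 0.13 for these and 0.05 for Slc6a8, and a stricter filter gave 0.01 for Slc6a6. With the GC offset Slc7a5 was at -0.05, Slc38a1 at 0.19, Slc1a5 at -0.13, Slc7a1 at -0.03, Slc38a9 at 0.04, Slc6a15 at 0.07 and Slc6a14 at 0.30. From all transcripts Slc7a5 was at -0.07, Slc38a1 at 0.22, Slc38a9 at 0.02, Slc6a15 at 0.06 and Slc6a14 at 0.29. With the replicate block and the GC offset these were -0.06 for Slc7a5, 0.18 for Slc38a1, -0.13 for Slc1a5, -0.03 for Slc7a1, 0.04 for Slc38a9, 0.08 for Slc6a15 and 0.31 for Slc6a14. Over the fits without 1 library the range was -0.35 to 0.06 for Slc3a2, -0.16 to 0.40 for Slc7a5, -0.20 to 0.35 for Slc38a1, -0.57 to 0.13 for Slc6a6, -0.25 to 0.39 for Slc1a5, -0.08 to 0.20 for Slc7a1 and -0.09 to 0.26 for Slc7a6. It was -0.52 to 0.08 for Slc6a8, -0.00 to 0.19 for Slc7a7, -0.45 to 0.12 for Slc38a9, -0.64 to 0.24 for Slc6a15, -0.06 to 1.0 for Slc7a4, -0.23 to 1.01 for Slc36a4 and -0.87 to 0.83 for Slc6a14.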
